A study of Mus musculus with 6 samples.

Results

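The genes of cone phototransduction were examined in the retina for H3K27ac, the acetylated lysine 27 of histone H3 found at active promoters and enhancers. Of 10 genes, 1 (Gnb3) carried a called promoter peak in all 6 samples (10%, against 39.5% of all protein-coding genes), 5 carried none in any sample (50%, against 42.4%), and the promoters of all 10 rod counterparts were marked in every sample. The genes were taken as a list: Opn1sw and Opn1mw (the short- and middle-wavelength cone opsins), Gnat2, Gnb3 and Gngt2 (the alpha, beta and gamma subunits of cone transducin), Pde6c and Pde6h (the catalytic and inhibitory subunits of the cone phosphodiesterase), Cnga3 and Cngb3 (the subunits of the cone cyclic nucleotide-gated channel) and Arr3 (cone arrestin). They are 10 of 21911 protein-coding genes. Their windows, the gene body with 20 kb on either side or 2.5 kb around any transcription start site (TSS), held 50 of the 135652 peaks of the 6 samples, and 25 of the 39942 consensus regions formed by merging the peaks.

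In cones, light absorbed by an opsin activates transducin, which relieves the inhibition of the phosphodiesterase; the enzyme then removes cyclic GMP and the channel closes. Arrestin quenches the opsin. Rods use a parallel set of proteins, most of them from separate genes, and rods far outnumber cones in the mouse retina. Gnb3 is also known from ON bipolar cells. The transcription factors CRX, OTX2, NRL, NR2E3, RORB, RXRG and THRB set the rod and cone programmes.

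All samples were bulk retinas of wild-type mice, 3 months old at the first pressure elevation. In the 3 4xIOP samples the eye had undergone unilateral elevation of the intraocular pressure to 30 mmHg for 1 h, 4 times, and the retina was taken on day 2 from the last elevation; the 3 control samples were contralateral eyes without elevation, taken on the same day. A protocol shared by the whole study describes injection of dasatinib or vehicle, and the treatment label of each sample names no drug. The study asked whether repeated stress moves acetylation in young retinas as a single stress does in old ones, and the old retinas are not analysed here. Each sample is 1 list of called peaks, with 16195 to 36509 peaks, and the longest is control replicate 3. In 4 of the 6 lists (control replicates 1 and 2, 4xIOP replicates 1 and 2) the name carried inside the list is that of the other group. The groups below are those of the labels, and values of the 2 lists whose name and label match (control replicate 3 and 4xIOP replicate 3) are given beside the comparisons of cone promoter and window counts and of Gnb3. No source says that equal replicate numbers mark the same animal, and a p-value here measures the spread between these samples.

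The lists hold no reads. The number of fragments at each summit was recovered from the deposited fold enrichment and p-value, and was divided by the genome mean background of the list. This quotient is called the level. The fold percentile of a peak is the rank of its deposited fold, which is taken over a local background, within its own list. The lowest summit in a list held 9 to 12 fragments, a level of 3.55 to 4.48, so a gene without a peak fell below the local threshold of its list, which leaves weaker acetylation unmeasured. Depth, expressed as background fragments per 10000 bp, ranged from 87.4 to 173. This takes the shortest peak of each list, 187 to 232 bp, as its fragment length, which was not measured. In bulk tissue, fewer cones and less acetylation per cone cannot be told apart.

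The cell types were checked first on marker genes. All 5 rod markers had a marked promoter in each of the 6 lists. Of the 5 cone markers, which are themselves members of the list studied here, 1 (Gnat2) was marked in control replicate 3 and 0 in the other lists, with Opn1sw, Opn1mw, Arr3 and Pde6h unmarked throughout. Of 5 bipolar cell markers, the control lists marked 2, 1 and 5 (replicates 1 to 3), each 4xIOP list marked 1, and their summed level was 16.0 to 65.2 in control and 11.3 to 28.3 in 4xIOP. Trpm1 and Cabp5 were marked in control replicate 3 alone. Amacrine markers were marked in 1 of 4 in every list and Müller glia markers in 1 or 2 of 5, and horizontal cell, microglia, endothelium, pigment epithelium and non-retinal markers in 0. Of 5 ganglion cell markers, 1 was marked in 4xIOP replicates 1 and 3 and 0 elsewhere.

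The sequences below are shown to set the member that was marked in every sample beside both opsins, which were not marked, and a rod gene. Capitals mark the letters TAATCC (the core bound by CRX and OTX2), AGGTCA (a nuclear receptor core) and TGCTGA (part of the NRL site), searched on both strands. The Gnb3 line is the 300 bases before its TSS (GRCm38, minus strand, chr6:124840276-124840575), which lie inside the region merged over the lists. Peaks covered 257, 0 and 250 of these bases in control replicates 1 to 3, against 68, 300 and 0 with 4xIOP. The others are the 250 bases before the RefSeq start (GRCm38.p6): Opn1sw at chr6:29380514-29380763 on the minus strand, Opn1mw at chrX:74127216-74127465 on the plus strand, and the rod channel gene Cngb1 at chr8:95306586-95306835 on the minus strand, shown as a rod gene marked in all lists.
Gnb3: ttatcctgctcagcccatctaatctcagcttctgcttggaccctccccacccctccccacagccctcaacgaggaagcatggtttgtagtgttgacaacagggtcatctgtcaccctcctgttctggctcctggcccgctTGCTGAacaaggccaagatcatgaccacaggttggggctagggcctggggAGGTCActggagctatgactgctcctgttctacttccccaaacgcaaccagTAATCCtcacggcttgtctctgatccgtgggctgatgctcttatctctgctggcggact
Opn1sw: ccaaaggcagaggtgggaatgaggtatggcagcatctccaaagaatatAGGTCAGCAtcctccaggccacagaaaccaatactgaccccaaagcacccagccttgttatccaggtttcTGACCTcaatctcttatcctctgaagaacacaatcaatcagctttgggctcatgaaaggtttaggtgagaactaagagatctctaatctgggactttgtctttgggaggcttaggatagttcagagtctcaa
Opn1mw: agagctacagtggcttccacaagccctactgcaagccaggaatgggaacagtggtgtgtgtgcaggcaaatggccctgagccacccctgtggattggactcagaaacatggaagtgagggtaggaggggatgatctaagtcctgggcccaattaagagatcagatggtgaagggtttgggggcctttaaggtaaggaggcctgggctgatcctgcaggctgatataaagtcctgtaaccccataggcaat
Cngb1: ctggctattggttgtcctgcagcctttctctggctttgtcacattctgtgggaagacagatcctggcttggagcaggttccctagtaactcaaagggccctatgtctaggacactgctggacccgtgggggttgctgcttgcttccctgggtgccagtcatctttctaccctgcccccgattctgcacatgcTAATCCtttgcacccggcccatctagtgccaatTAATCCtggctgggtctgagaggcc

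The Gnb3 stretch held 1 match of each of the 3 motifs, at positions 141 (TGCTGA), 191 (AGGTCA) and 242 (TAATCC) counted from its 5′ end. The Opn1sw promoter held AGGTCA at positions 49 and 119 and TGCTGA at position 52, the first AGGTCA and the TGCTGA overlapping. The Opn1mw promoter held none of the 3. Cngb1 held TAATCC at positions 193 and 226. RefSeq promoters of 300 bases (250 before and 50 after the start) were found for 6 cone genes, with 7 promoters; Gnb3, Gngt2, Pde6c and Cngb3 had no entry. Of these 7, 1 held TAATCC (Gnat2), 1 AGGTCA and 1 TGCTGA (both Opn1sw), against 7.06%, 16.3% and 19.5% of all 32851 promoters in the table. Of the 6 rod promoters found, 4, 3 and 2 held them. A match is a string of letters and not a measured binding site.

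The opsins came first. Opn1sw (ENSMUSG00000058831.13, chromosome 6, 29376671 to 29388468) and Opn1mw (ENSMUSG00000031394.11, chromosome X, 74127464 to 74150760) had a promoter peak in 0 of 6 lists. The Opn1sw window held 3 peaks, each in 1 control list: a weak one downstream, in an intron of Calu (level 6.39, control replicate 1), and a pair near the promoter of Ccdc136 in control replicate 3.

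Transducin was next. Gnb3 (ENSMUSG00000023439.11, chromosome 6, 124834240 to 124840275, minus strand) was marked in 6 of 6 lists, by peaks of up to 1371 bp that merge over the lists into a region of 1902 bp (124839294 to 124841195). A peak covered the TSS itself in 4 lists, and in control replicate 2 and 4xIOP replicate 3 none did. Its highest summit lay 0.188 to 0.429 kb after the TSS, and the highest of all lay in an intron of Gnb3. The control summits held 100, 101 and 78 fragments (replicates 1 to 3), the 4xIOP summits 44, 55 and 57. The corresponding levels were 45.6, 29.9 and 31.6 in control and 21.9, 25.9 and 22.2 in 4xIOP.

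By the labels, every control level of Gnb3 was above every 4xIOP level. The means were 35.7 ± 8.64 and 23.3 ± 2.24 (SD, n = 3), a ratio of 0.654, and the exact permutation p was 0.1 (two-sided), the smallest that 3 against 3 can give. In 1% of the 8657 promoters marked in all lists, the control levels were likewise all above the 4xIOP levels. The 2 lists whose name matches their label had levels of 31.6 (control replicate 3) and 22.2 (4xIOP replicate 3). By the names carried inside the lists the order would not hold, since lists named as control were at 31.6, 21.9 and 25.9 and those named as 4xIOP at 45.6, 29.9 and 22.2, which overlap.

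The direction depended on the measure. Relative to the median promoter of its own list, the Gnb3 level was 2.86, 2.73 and 1.10 in control and 1.29, 1.72 and 1.97 in 4xIOP (2.23 ± 0.981 and 1.66 ± 0.340, SD, n = 3, exact permutation p = 0.4), and the groups overlapped. The fold percentile was 62.4, 50.002 and 65.1 in control and 65.4, 66.6 and 56.9 in 4xIOP (59.2 ± 8.07 and 63.0 ± 5.34, SD, n = 3, exact permutation p = 0.5). By the labels, the local background around the Gnb3 peak, over the genome mean, was higher in every control list than in every 4xIOP list. It was 9.62, 7.499 and 6.32 in control and 4.24, 5.25 and 4.56 in 4xIOP. Within control its order differed from that of the level. The summed level of the bipolar cell markers was 26.9, 16.0 and 65.2 in control and 28.3, 21.7 and 11.3 in 4xIOP, and overlapped between the groups. The part of either in the Gnb3 result was not tested.

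**Figure D1:**
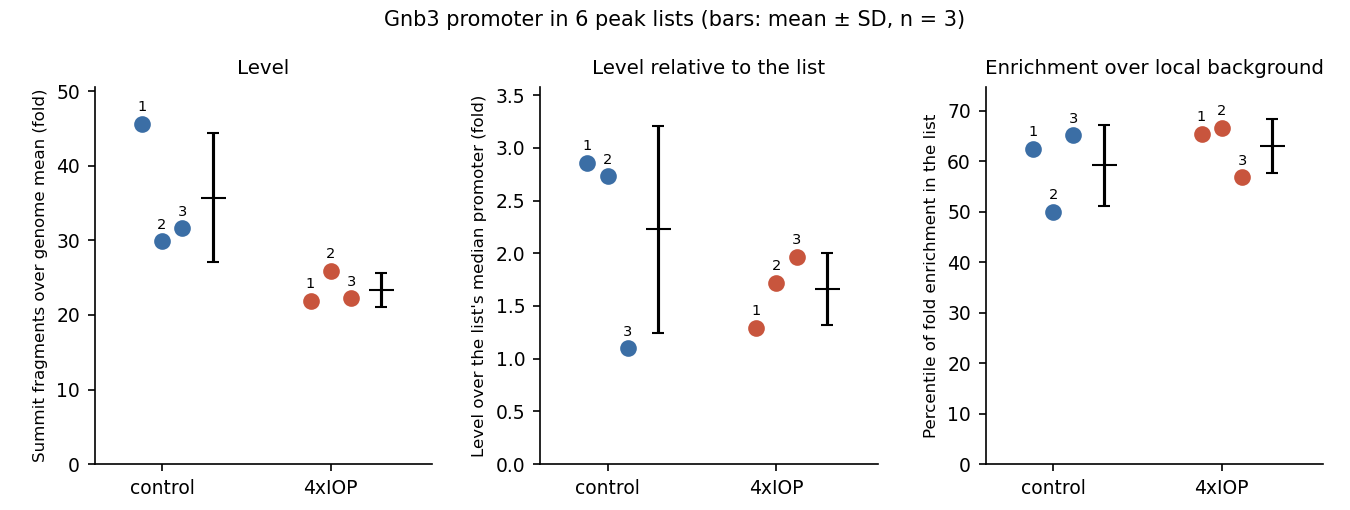
Gnb3 promoter peak in the 3 control (blue) and 3 4xIOP (red) lists, with replicate numbers beside the points; bars give the mean ± SD (n = 3). The y axes show the level (summit fragments over the genome mean), the level over the median promoter of the same list, and the percentile of fold enrichment in the list. The groups are apart in the first panel (29.9 and above against 25.9 and below) and overlap in the other 2.

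In the fit over all promoters marked in every list (limma on normal scores of the within-list rank of fold, group as the only term), the Gnb3 score was higher in 4xIOP by 0.50 ± 0.36 (SE), with an adjusted p of 0.9997. Between control replicate 3 and 4xIOP replicate 3 alone the score was higher in 4xIOP by 0.70, with no test, while the percentile among all peaks of the list was lower there (65.1 and 56.9). The score ranks a promoter among the promoters tested and the percentile ranks a peak among all peaks. Of 8657 promoters, limma called 0 (0%) at an adjusted p under 0.05, and 270 (3.12%) had an unadjusted p under 0.05. The sign for Gnb3 turned with summit fragments ranked in place of fold (-0.42) and with −log10 p ranked (-0.028). It also turned when the level itself was tested on the log2 scale (-0.59, limma adjusted p 0.958), where the median of all promoters moved by -0.27.

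By the labels, Gnb3 had a second promoter peak in each control list and in no 4xIOP list. By the names carried inside the lists it would be in 1 of 3 control and 2 of 3 4xIOP lists. Its summit lay at -0.595, -0.72 and -0.424 kb from the TSS (upstream), with levels of 23.3, 20.4 and 13.8 in control replicates 1 to 3 and fold percentiles of 2.59, 8.94 and 2.20. The single peak of 4xIOP replicate 2, 1371 bp long, reached over the same stretch. More than 1 peak in every control list and 1 in every 4xIOP list was found for 1.18% of promoters marked in all lists. This feature was singled out after its values were seen.

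The rod beta subunit gene Gnb1 was at a level of 34.7, 30.8 and 55.5 in the control lists, against 32.8, 40.5 and 19.1 with 4xIOP. The ratio of Gnb3 to Gnb1 ranged from 0.569 to 1.32 in control and from 0.640 to 1.16 in 4xIOP. Gnb3 was the higher of the pair in control replicate 1 and 4xIOP replicate 3 and the lower in the other 4 lists.

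The other transducin subunits were marked once. Gnat2 (ENSMUSG00000009108.15, chromosome 3, 108092789 to 108101432) had a peak of 21 summit fragments in control replicate 3, a level of 8.51, in an intron 0.663 kb after the TSS. In the same list Gnat1, its rod counterpart, had a level of 59.5. Gngt2 (ENSMUSG00000038811.13, chromosome 11, 95837216 to 95845734) had 2 peaks in control replicate 3, with levels of 8.51 and 6.89, at a promoter that also serves Abi3, and Gngt1 had a level of 32.4 there. The peaks cannot be assigned to Gngt2 rather than Abi3.

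The Gngt2 window also held called regions beyond the 3′ end of the gene. A region 14.97 kb after the nearest TSS (95858148 to 95858756, in an intron of the transcript Gm11527) was called in 3 control lists and 4xIOP replicate 2, at levels of 9.58, 5.03 and 15.4 (control replicates 1 to 3) and 10.4 (4xIOP). An adjoining region (95858909 to 95859880) was called in 3 lists (control replicates 1 and 3, 4xIOP replicate 1), at 10.5, 18.6 and 11.9. Its highest summit lay in exons of the transcripts Gm11527 and 4833417C18Rik. Whether either region acts on Gngt2 was not tested. The levels of the groups overlapped in both. The 300 bases around the highest summit of the first, chr11:95858430-95858729, plus strand, hold TAATCC at position 46:
Gngt2 downstream region: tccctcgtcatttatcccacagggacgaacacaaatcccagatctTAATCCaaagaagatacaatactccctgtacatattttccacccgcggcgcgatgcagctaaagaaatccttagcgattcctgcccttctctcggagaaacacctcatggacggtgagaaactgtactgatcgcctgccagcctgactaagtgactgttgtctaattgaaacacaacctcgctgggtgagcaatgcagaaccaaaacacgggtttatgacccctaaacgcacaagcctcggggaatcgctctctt

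Of 21760 such windows around summits away from promoters of protein-coding genes, 11.8% held TAATCC, 20.5% AGGTCA and 25.9% TGCTGA. Promoters of noncoding genes were not removed from them.

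Among the phosphodiesterase genes, Pde6c (ENSMUSG00000024992.13, chromosome 19, 38132781 to 38183958) had a promoter peak in 2 lists, control replicates 1 and 3, with 15 and 13 summit fragments and levels of 6.84 and 5.27. The peaks were separate, 0.951 kb (in an intron) and 0.375 kb (over a coding exon) after the TSS. Levels of the rod catalytic subunit genes in the same lists were 33.8 and 51.8 for Pde6a and 29.2 and 46.2 for Pde6b. A region in a Pde6c intron 22.7 kb after the TSS (38155437 to 38156090) was called in control replicate 3 (level 7.70) and 4xIOP replicate 2 (level 5.65).

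Pde6h (ENSMUSG00000064330.9, chromosome 6, 136923832 to 136968865) had no promoter peak in any list. Its 2 window peaks, both in control replicate 3 at levels of 5.67 and 4.05, lay in an intron of Erp27 about 10 kb before the annotated start of the gene. The rod inhibitory subunit gene Pde6g was marked in all 6 lists at levels of 24.2 to 58.7.

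The channel genes and arrestin had 1 promoter peak in all. Cnga3 (ENSMUSG00000026114.14, chromosome 1, 37214434 to 37263384) had 1 peak, in control replicate 3, of 199 bp and 13 summit fragments (level 5.27), in an intron 0.182 kb after a TSS. Cngb3 (ENSMUSG00000056494.7, chromosome 4, 19280850 to 19510623) had no peak in its window in any list, and the nearest summit was 289 kb from its TSS in all 6. Arr3 (ENSMUSG00000060890.11, chromosome X, 100605497 to 100618493) had no promoter peak. The only region of its window, at the shared promoter of Kif4 and Pdzd11, was called in control replicate 3 and 4xIOP replicate 1. The rod channel genes Cnga1 and Cngb1 and the rod arrestin gene Sag were marked in every list, at levels of 14.4 to 58.9.

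**Figure D2:**
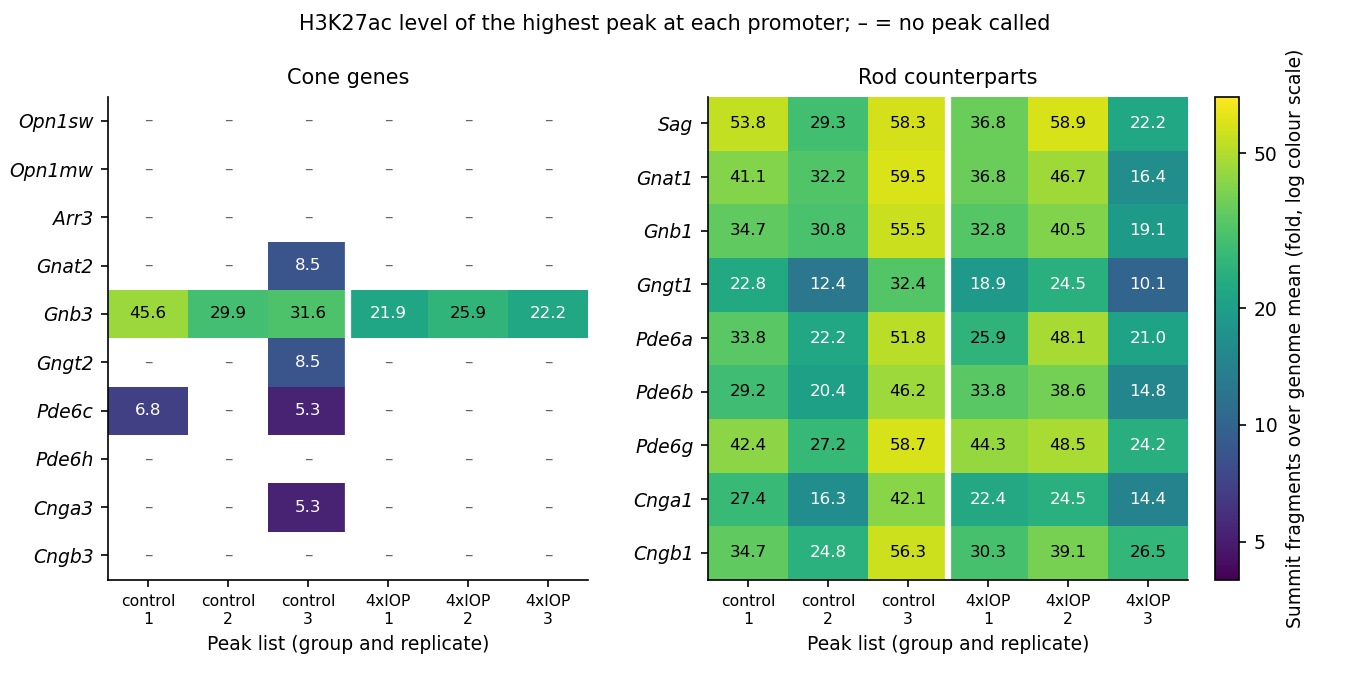
Level (summit fragments over the genome mean background) of the highest promoter peak of each cone gene (left) and of 9 rod counterparts (right) in the 6 lists; a dash marks a promoter with no called peak and the colour scale is logarithmic. The Gnb3 row is filled in all lists at 21.9 to 45.6, the other cone genes reach at most 8.51, and the rod rows lie between 10.1 and 59.5.

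Counted per list, control replicates 1 to 3 had 2, 1 and 5 of the 10 cone promoters marked, and each 4xIOP list had 1. The means were 2.67 ± 2.08 and 1.00 ± 0.00 (SD, n = 3), a difference of -1.67. Control replicate 3 carried 3 of these promoters alone (Gnat2, Gngt2 and Cnga3). Being marked in that list only applied to 5.23% of all protein-coding genes, and to 3 of 10 here. Without that list the difference was -0.50, with a −log10 q of at least 5 it was -0.33, and with the lists cut to equal length by rank it was 0. Over all protein-coding genes 48.6%, 46.2% and 56.9% were marked in control and 47.4%, 45.6% and 44.6% in 4xIOP.

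No cone promoter was marked in the 3 control lists but unmarked in the 3 4xIOP lists, where 79 of 21911 genes (0.361%) were. Without control replicate 2 there was 1 such cone promoter (Pde6c), among 277 genes. No cone promoter showed the opposite, where 0 genes (0%) did. With the lists cut to equal length these numbers of genes were 29 and 10, and without control replicate 3 the opposite held for 36. In the 2 lists whose name matches their label, 5 (control replicate 3) and 1 (4xIOP replicate 3) of 10 were marked. By the names carried inside the lists, the cone promoters marked would be 5, 1 and 1 for control against 2, 1 and 1 for 4xIOP.

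The windows gave the same order. Control lists had 8, 4 and 23 peaks in the 846 kb of cone gene windows and 4xIOP lists 6, 7 and 2. The means were 11.7 ± 10.0 and 5.00 ± 2.65 (SD, n = 3), and the difference of -6.67 was within the spread (exact permutation p = 0.4, two-sided). Control replicate 3 decided its size: without it the difference was -1. With the lists cut to equal length it was -2 (5.67 against 3.67), at a −log10 q of at least 5 it was -4, and with a flank of 5 kb it was -3.33. As a share of its list, the windows held 0.0365%, 0.0201% and 0.0630% of the control peaks, against 0.0295%, 0.0336% and 0.0123% with 4xIOP, and these shares overlapped. The lists whose name matches their label held 23 (control replicate 3) and 2 (4xIOP replicate 3). By the names carried inside the lists, the peaks would be 23, 6 and 7 for control against 8, 4 and 2 for 4xIOP, which overlap. In the 754 kb of rod gene windows the lists held 49, 63 and 83 peaks in control and 44, 63 and 37 in 4xIOP.

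Of the 25 regions in the windows, 7 were at a promoter of the gene itself and 10 at a promoter of another protein-coding gene. The other 8 were at no promoter of a protein-coding gene. In control replicate 3 alone, 13 of the 25 were called, and 28.6% of all consensus regions were called in that list only. In all 6 lists 2 were called, against 26.4% of all consensus regions. They were the Gnb3 promoter and a region over an exon of P3h3 (124857158 to 124857736), 17.1 kb before the Gnb3 TSS. The P3h3 region was at a level of 22.8, 16.9 and 34.4 in the control lists, against 16.4, 18.4 and 12.5 with 4xIOP, so the groups overlapped. Its score difference was 0.011 ± 0.31 (SE, limma adjusted p = 0.9999). Of 10529 regions called in all lists, limma called 0 (0%), and 334 (3.17%) had an unadjusted p under 0.05.

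**Figure D3:**
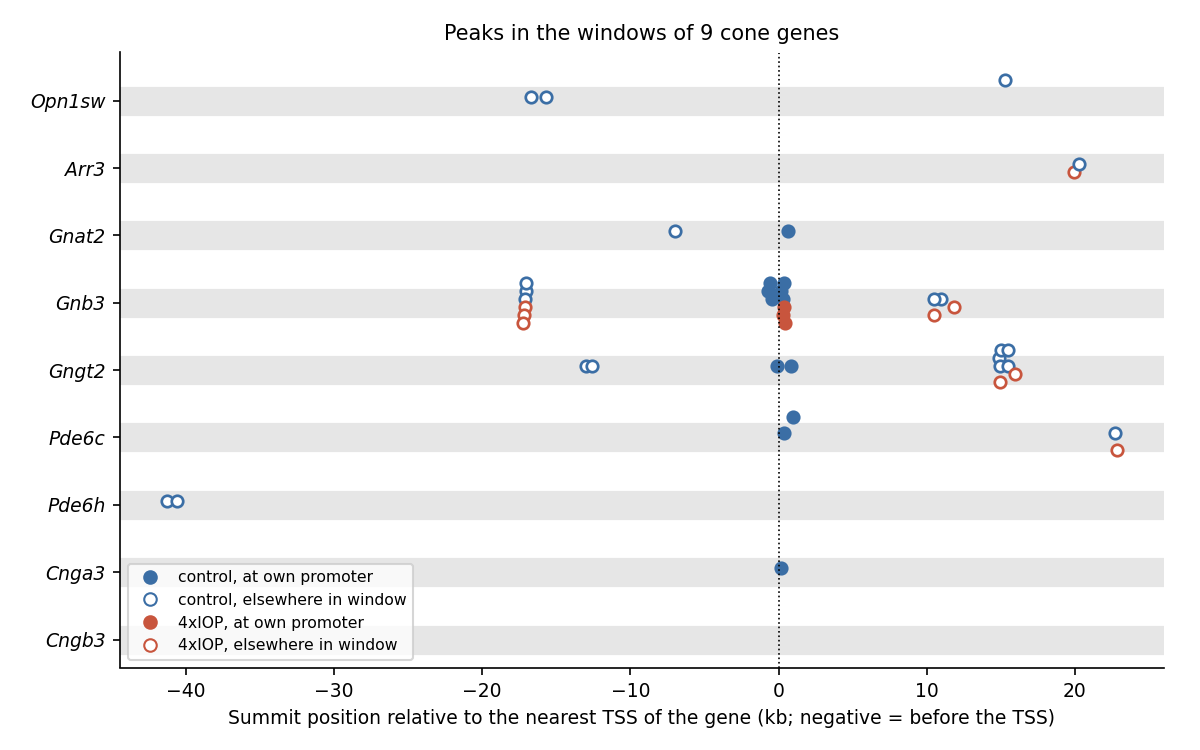
Summits of 44 peaks in the windows of 9 cone genes (Opn1mw is not drawn), by distance in kb from the nearest basic-annotation TSS of the gene along its strand; blue points are control and red points 4xIOP, filled at the gene's own promoter, and each list has its own height within a row. Red points at an own promoter occur in the Gnb3 row only, the Cngb3 row is empty, and the Pde6h points lie about 41 kb before its TSS because the annotated gene starts further upstream.

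The other genes of the pathway were marked more often. Of 12 further phototransduction genes, such as the kinase gene Grk1, recoverin (Rcvrn) and the cyclase genes Gucy2e and Gucy2f, every control list had 12 marked, while 4xIOP replicates 1 to 3 had 9, 10 and 11. The shares of all protein-coding genes were 46.2% to 56.9% for control and 44.6% to 47.4% for 4xIOP. By the names carried inside the lists the counts would be 12, 9 and 10 for control against 12, 12 and 11 for 4xIOP, which overlap. One of them, Slc24a2, which encodes the exchanger of sodium, calcium and potassium known from cones, had a promoter peak by the labels in every control list but none with 4xIOP, as did 0.361% of all genes. By the carried names it would be marked in 1 of 3 control and 2 of 3 4xIOP lists. Its summits were small, with 11, 17 and 20 fragments and levels of 5.02, 5.03 and 8.10, and at a −log10 q of at least 5 only control replicate 3 would remain (2.86, 4.79 and 9.79). Slc24a2 was picked out after its values were seen.

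Of 10 transcription factor genes, 7, 7 and 10 were marked in control and 6, 7 and 7 in 4xIOP. The shares of all protein-coding genes were 48.6%, 46.2% and 56.9% in control and 47.4%, 45.6% and 44.6% in 4xIOP. Of the factor genes, 3 were marked in control replicate 3 only, as were 5.23% of all genes. Thrb, whose product directs the middle-wavelength opsin, was marked in all 6 lists at levels of 20.4 to 50.6. A peak at any of its TSS counted, and its transcripts were not separated. Rorb was also marked in all, at 8.96 to 34.8, but this range mixes promoters of the gene. Its highest peak lay within 19000874 to 19004348 of chromosome 19 in control replicates 1 and 3. In the other lists it lay within 19110135 to 19111068. Those of control replicate 3 only were Rxrg and Sall3, known from cones, and Prdm1. Rxrg there had 13 summit fragments and a level of 5.27.

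A feature the list did not use is the base composition of the promoters. In the 300 bases from 250 before to 50 after a GENCODE TSS, taking the richest TSS of each gene, the cone genes had 0 to 10 CpG dinucleotides (median 4.5), against a median of 15 over all protein-coding genes. Of the 9032 genes with at most 10, 82.0% were marked in no list and 7.97% in all 6. Of the 12879 genes above that number, 14.6% and 61.6% were. Cone genes were marked in no list in 5 of 10 (50%) and in all lists in 1 of 10 (10%), against 42.4% and 39.5% of all genes. The rod genes had a median of 4 CpG, like the cone genes, and all 10 were marked in every list; Gnb1 was the exception in composition, with 34. This comparison was chosen after the data were seen and its limit of 10 is the highest cone value, so it is a description.

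**Figure D4:**
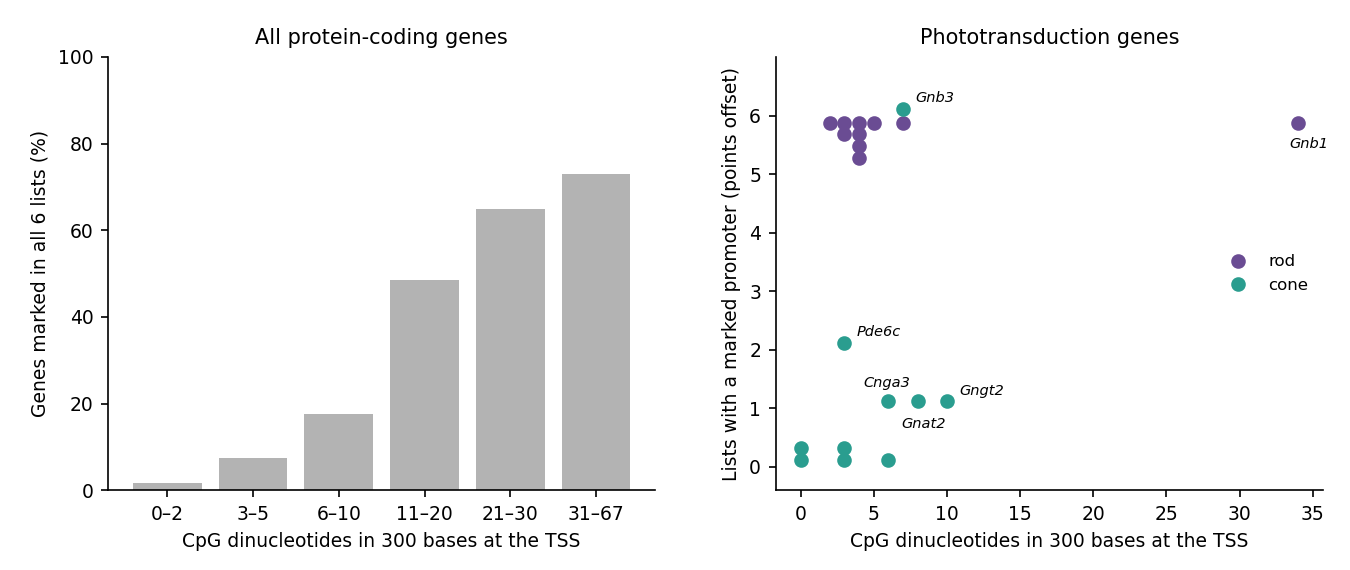
Left, share of all protein-coding genes marked in all 6 lists by the number of CpG dinucleotides at the TSS, rising from 1.56% (0 to 2) to 72.9% (31 to 67). Right, CpG number (x axis) and number of lists with a marked promoter (y axis, points offset to be seen) of each cone (green) and rod (purple) gene; both sets sit at 10 or fewer except Gnb1, with the rod genes at 6 lists and most cone genes at 0 to 2.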

How the data were processed

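H3K27ac ChIP-seq of 6 mouse retinas (3 control, 3 4xIOP, groups and replicate numbers from the labels) was analysed from 1 deposited peak list per sample. The narrowPeak values are the authors' fold enrichment (a ratio to local background at the summit), −log10 p-value and −log10 q-value, called per sample. The submitters' processing notes name mm10, STAR 2.7.8a, MACS2, HOMER, edgeR and bedtools 2.29.2 without their roles; the calling threshold for these lists is not given in the sources used here, and the lowest −log10 q was 1.31. Fold is relative to local background, so broad acetylated domains lower it, and the lists cannot show signal below the threshold.

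The cone genes, the rod, pathway and factor lists and the tests were chosen with earlier results of these data known. Fragments k and background b at each summit were solved from fold = (k + 1) / (b + 1) and the Poisson p-value, and matched the deposited −log10 p within 0.001 for 100% of peaks in each list. Levels are k over the lowest b of the list. Autosomal, X and Y peaks were joined to the GENCODE vM21 basic annotation (GRCm38), and 0 peaks ended past a chromosome. A promoter was 2.5 kb either side of a TSS of a protein-coding gene, and 1 bp of overlap counted as marked. Normal scores of within-list fold ranks were tested with limma 3.58.1 (R 4.3.3) and Benjamini-Hochberg adjustment at 0.05 over all regions or promoters called in all lists, and single values with two-sided exact permutation tests (scipy 1.17.1). Recovery, overlaps and the limma fit were tested on simulated data. Named genes were all 10 cone genes, rod genes set beside them, and neighbours whose promoter peaks lie in a cone window; by that rule the pathway, factor and marker lists were to be given as counts. Their members named in the text fall outside it, as do Calu, Erp27, Gm11527 and 4833417C18Rik, named for where a peak lies. All were chosen after their values were seen. Alternatives were the threshold, list length, promoter width, overlap by summit, window flank, ranked value, fragment-length class, replicate block and leaving out each list. Fragment-length class was whether the shortest peak of a list exceeded 200 bp. Any pair of lists shared 0 or 1 identical intervals. Some marker and rod values and the peaks of the Opn1mw window are not reported here.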

Additional observations from a re-analysis of the deposited data

How the results depend on the processing

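Cone promoters differed by -1.67 marked genes in the comprehensive annotation too, by -0.33 at a −log10 q of at least 5, by 0 with equal numbers of top peaks, by -2.50 to -0.50 when 1 list was left out, and by -4 (5 against 1) in control replicate 3 and 4xIOP replicate 3 alone. Window peaks differed by -10.5 to -1 when 1 list was left out and by -21 in that pair, with exact permutation p of 0.2 to 0.8 over 12 settings. The pair and the comprehensive annotation were chosen after seeing the data. Promoters marked in all control and no 4xIOP lists numbered 29 with equal top peaks and 82 to 277 when 1 list was left out (277, with Pde6c among them, without control replicate 2); the opposite numbered 10 with equal top peaks, 1 with the summit inside the promoter, and 0 to 36 when 1 list was left out (36 without control replicate 3). The score difference of Gnb3 turned to -0.42 with summit fragments ranked, -0.028 with −log10 p ranked and -0.59 for the log2 level, and was 0.35 to 0.65 when 1 list was left out. That of the P3h3 region turned to -0.015 at a −log10 q of at least 5, -0.57 with summit fragments, -0.44 with −log10 p, -0.61 for the log2 level, -0.020 with fragment-length class as a term, and was -0.21 to 0.12 when 1 list was left out. The cause was not tested. limma called 0 regions and 0 promoters in each setting. Gnb3 was marked in 6 lists in each setting, whereas Gnat2, Pde6c and Cnga3 were in none at a −log10 q of at least 5.

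With the replicate number as a block the differences were -1.67 promoters and -6.67 peaks, limma called 0 promoters (236 with unadjusted p under 0.05) and 0 regions (289), and no call changed. Between same-numbered lists the correlations of deviations were -0.021, -0.057 and -0.15 over regions. No control list correlated best with the 4xIOP list of its own number. Deviations from a group mean cancel within the group, so each control list must have a low or negative value with some 4xIOP list. The correlations therefore cannot decide whether equal numbers mark the same animal. Peaks at 9 to 12 summit fragments are the lowest these lists can hold.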
